A study of Mus musculus with 4 samples.

Results

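The serpins are a superfamily of proteins that share 1 fold, and most of them inhibit proteases. A serpin offers its reactive loop to a protease as bait, and after the cut it swings the bound enzyme across its body and holds it in a dead complex. Some members have lost this activity and act as chaperones, hormone carriers or signals. The letter of a gene name gives the clade. Clades a, c, d, f and g are mostly secreted plasma proteins, and clade e holds inhibitors of plasminogen activators. Clade h holds the collagen chaperone of the endoplasmic reticulum, and clade i includes the neuronal inhibitor neuroserpin. Clade b members mostly stay in the cytosol, and many are known from stratified epithelia and white blood cells.

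The serpin genes were taken as every non-control probe of the array whose gene name begins with Serpin, a clade letter from a to i and a number, a rule that used no measured value. It found 54 genes on 73 probes, of 27962 genes on 41174 probes in all. Clade b was the largest with 24 genes, followed by clade a with 20, and clades c to i held 1 or 2 genes each. A total of 19 genes had 2 probes and 35 had 1 probe. Each gene was read from whichever of its probes had the highest mean signal.

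Molar germs of C57BL/6 mouse embryos, from the first molar of the mandible, were pooled and profiled at embryonic day (E) 11, 12, 14, 16 and 18. The E14 pool was labelled with Cy3 on every array, and E11, E12, E16 or E18 with Cy5, on 4 arrays in all with no dye swap. No genotype other than the strain and no treatment is given in the labels, nor is the number of germs in a pool. Each stage other than E14 is 1 pool on 1 array, so the spread between litters is unknown, and E11 and E12 shared 1 slide while E16 and E18 shared the other. Over the arrays 52.5% to 59% of probes were well above background in Cy5 and 54.3% to 57% in Cy3. The E14 channel, the only level measured 4 times, had a standard deviation (SD) over the hybridisations with a median of 0.05 log2 units over all measured genes and 0.06 over the measured serpins. Epithelial markers (7 of 7 on the array) and mesenchymal markers (8 of 8) were measured, which are the tissues a tooth germ is made of. In pooled whole germs, fewer cells of a type and less RNA per cell cannot be told apart.

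Ratios below are log2 of the named stage over E14, so a ratio of 1 is a 2-fold higher level. The serpins with the largest ratios were Serpinb5, Serpinb6b and Serpinb12, all of clade b and all higher at E16 and E18, while Serpini1 was highest at E11. Promoter windows of RefSeq genes (build GRCm38.p6, 250 bases before to 50 bases from the annotated start on) were matched by symbol to 44 of the 54 genes, 22 of them measured. The windows of Serpinb5, Serpinb6b, Serpinb8 and Serpini1 are shown as examples. The first 3 are among the genes whose rise over the days passed the test below without slide in the fit. Not all of those genes are shown. Serpini1 had the lowest slope of the measured serpins, which did not pass. Capitals mark 5 motifs searched on both strands: the TATA box TATAAA, the CCAAT box CCAAT, the GC box GGGCGG, the AP-1 site TGAGTCA and the E-box CACCTG.
Serpinb5, chr1:106860925-106861224, plus strand: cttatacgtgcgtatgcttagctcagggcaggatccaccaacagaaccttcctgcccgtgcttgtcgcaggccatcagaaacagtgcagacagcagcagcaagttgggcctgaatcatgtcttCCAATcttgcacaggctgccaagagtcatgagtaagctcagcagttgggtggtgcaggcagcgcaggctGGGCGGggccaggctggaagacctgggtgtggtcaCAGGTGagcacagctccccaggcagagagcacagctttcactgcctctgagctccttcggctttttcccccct
Serpinb6b, chr13:32965011-32965310, plus strand: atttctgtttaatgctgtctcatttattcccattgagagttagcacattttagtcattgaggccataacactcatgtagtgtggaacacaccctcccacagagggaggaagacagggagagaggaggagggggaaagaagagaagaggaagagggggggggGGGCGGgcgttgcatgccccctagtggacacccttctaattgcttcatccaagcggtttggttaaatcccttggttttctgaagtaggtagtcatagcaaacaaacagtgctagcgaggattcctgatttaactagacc
Serpinb8, chr1:107589756-107590055, plus strand: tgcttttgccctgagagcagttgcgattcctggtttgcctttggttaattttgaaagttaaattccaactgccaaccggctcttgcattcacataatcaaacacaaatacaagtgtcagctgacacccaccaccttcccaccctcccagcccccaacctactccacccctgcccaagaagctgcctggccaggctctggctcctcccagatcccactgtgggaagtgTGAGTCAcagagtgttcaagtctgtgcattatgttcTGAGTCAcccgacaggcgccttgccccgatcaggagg
Serpini1, chr3:75557243-75557542, plus strand: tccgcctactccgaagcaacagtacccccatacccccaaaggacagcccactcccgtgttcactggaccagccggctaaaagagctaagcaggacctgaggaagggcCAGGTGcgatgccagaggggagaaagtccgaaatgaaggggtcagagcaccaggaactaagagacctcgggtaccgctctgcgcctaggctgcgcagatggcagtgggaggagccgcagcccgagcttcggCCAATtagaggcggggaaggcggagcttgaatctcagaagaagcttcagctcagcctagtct

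The Serpinb5 window held a CCAAT box starting at -127 from the start site, a GC box at -58 and an E-box, on the other strand, at -23. The Serpinb6b window held a GC box alone, at -89. In the Serpinb8 window the AP-1 site occurred on the gene's strand at -23 and again at 14. The Serpini1 window held a CCAAT box at -12 and an E-box, on the other strand, at -143. None of these motifs is rare: over 32817 windows of the same length 13.6% held the TATA box, 37.4% the CCAAT box, 35.6% the GC box, 5.2% the AP-1 site and 20.2% the E-box. Of the 22 measured serpins with a window, 6 had the TATA box, 8 the CCAAT box, 7 the GC box, 2 the AP-1 site and 6 the E-box. These matches are a description of letters in the windows and were not set against binding data.

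Which serpins gave a signal at all came first. A gene counted as measured when its probe passed the scanner software's test for a signal well above background in Cy5 (1 or more arrays) or in Cy3 (2 or more). This held for 28 of 54 serpins (51.9%) and for 17552 of all 27962 genes (62.8%). Clade b had 15 of 24 measured and clade a 5 of 20. Serpinc1, Serpind1, Serpine2, Serpinf1, Serping1, Serpinh1 and Serpini1 were among the other genes measured.

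The number of serpins above background was higher at the late stages. It was 13 at E11 and 16 at E12, against 24 at E16 and 21 at E18, and 13 on all 4 E14 hybridisations. Over every gene the share stayed between 53.2% and 58.3% at these stages, while the serpin share went from 24.1% at E11 to 44.4% at E16 and 38.9% at E18. Clade b carried most of this, with 6 of its 24 genes above background at E11 and 7 at E12, but 15 at E16 and 12 at E18. Clade a had 1 gene above background at E11 and 2 at each of E12, E16 and E18.

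**Figure D1:**
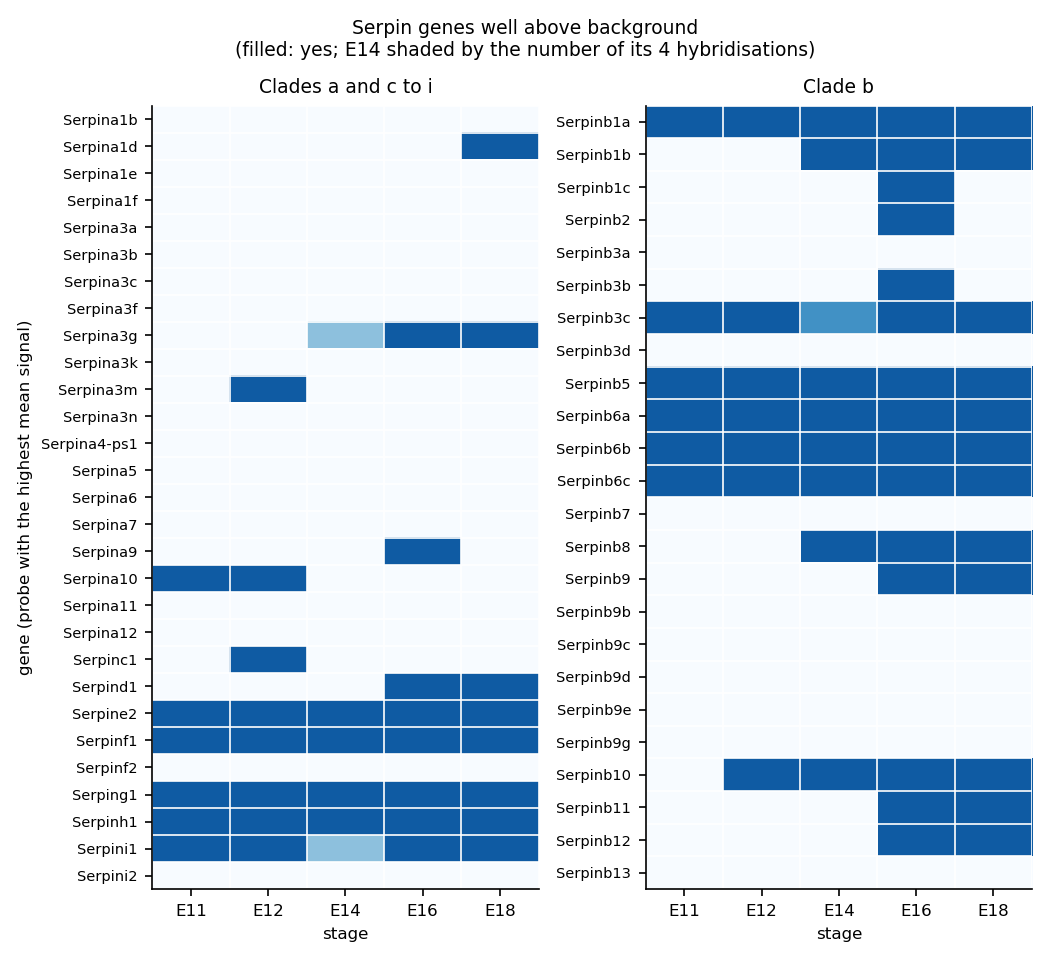
Each row is a serpin gene named in the text and each column a stage, and a filled cell marks a probe well above background (E14 is shaded by how many of its 4 hybridisations were above). In clade b 6 of 24 genes are filled at E11 and 15 at E16, and most rows of clade a are empty at every stage.

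Of the measured serpins, 10 were above background in both channels on all 4 arrays, among them Serpinb1a, Serpinb5, Serpinb6a, Serpinb6b, Serpinb6c, Serpine2, Serpinf1, Serping1 and Serpinh1. In Cy5, 12 were seen at E16 or E18 and at neither E11 nor E12, and 9 of these were above background on no E14 hybridisation either. The opposite, Cy5 at E11 or E12 alone, held for 3 genes, Serpina10, Serpina3m and Serpinc1. The shares of all genes with either pattern were not counted, so these counts have nothing to be set against. A gene that entered only through the stage where it was bright had to differ from the other stages, so counts over the 28 measured genes are descriptions. For 7 genes the entry rested on Cy5 of 1 array with no E14 signal: Serpina1d, Serpina3m, Serpina9, Serpinb1c, Serpinb2, Serpinb3b and Serpinc1.

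Well-known plasma serpins were among those not above background on any probe. In clade a these were Serpina1b, Serpina1e and Serpina1f of the alpha-1-antitrypsin group, Serpina3a, Serpina3b, Serpina3c, Serpina3f, Serpina3k and Serpina3n of the antichymotrypsin group, the protein C inhibitor Serpina5, the corticosteroid carrier Serpina6, the thyroxine carrier Serpina7, and Serpina4-ps1, Serpina11 and Serpina12. In clade b they were Serpinb3d, Serpinb7, Serpinb9b, Serpinb9c, Serpinb9d, Serpinb9e, Serpinb9g and Serpinb13. The plasmin inhibitor Serpinf2 and Serpini2 completed the list. Serpinb3a was above background only on its dimmer probe, in Cy5 at E16. Of 6 hepatocyte and plasma protein markers on the array Ttr, Apoa1, Fgb and Ahsg were not above background either, and 2 were measured. A probe that is not well above background gives a limit on the level, not an absence of the RNA.

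Which serpins differed between E14 and each earlier or later stage was read next, with at least 2-fold as a rule of size since 1 pool per stage allows no test. At E11, 1 serpin (Serpini1) was at least 2-fold above E14 and 2 (Serpinb5 and Serpine2) at least 2-fold below, where 1.58% and 4.84% of all measured genes were. At E12 none was above and only Serpinb5 was below, where 0.319% and 2.62% of genes were. At E16 Serpinb1a, Serpinb5, Serpinb6b and Serpinb12 were at least 2-fold above, 4 of 28 against 1.99% of genes. At E18 Serpinb5, Serpinb6b, Serpinb11 and Serpinb12 were, again 4 of 28, against 3.79%. No measured serpin was 2-fold below E14 at E16 or E18, where 1.7% and 3.85% of genes were.

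Between arrays, compared through the shared E14 pool, most of the movement lay between E12 and E16, which is also where the slides change. From E12 to E16, 7 serpins were at least 2-fold higher (Serpinb1a, Serpinb1b, Serpinb5, Serpinb6b, Serpinb10, Serpinb12 and Serpine2) and none lower, against 4.76% and 1.46% of genes. From E11 to E12 no serpin was 2-fold higher and only Serpini1 was 2-fold lower (0.672% and 0.302% of genes). From E16 to E18 none was 2-fold higher and only Serpinb1a was 2-fold lower (0.484% and 0.866% of genes). From E11 to E18, 8 were higher and Serpini1 was lower, against 5.89% and 2.51% of genes.

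To follow the serpins over time, limma fitted a straight line in embryonic day, with Benjamini-Hochberg adjustment over 17545 genes and 2 residual degrees of freedom. The slope rose for 7 of the 28 measured serpins at an adjusted p under 0.05 and fell for none, where 6.28% of all genes rose and 2.64% fell. The 7 were Serpinb5, Serpinb12, Serpinb6b, Serpinb1b, Serpinb6a and Serpinb8 of clade b and Serpind1 of clade d. Serpinb12 and Serpind1 had counted as measured only through Cy5 at E16 and E18, so 5 of the 7 did not enter through the late stages alone. The slope was above 0 in 22 of 28 serpins and in 48.3% of all genes, and its median was 0.07 log2 units per day in serpins and -0.002 over all genes. When slide was added to the fit, only 1 residual degree of freedom remained and limma called no gene of the whole array. At an unadjusted p under 0.05 that fit had 585 of 17545 genes, 8 of them serpins, which were not split by direction. Most of the 28 serpin slopes were below 0 in it, among them Serpinb1a (-0.63), Serpinb3b (-0.28), Serpinb6b (-0.21) and Serpinb5 (-0.11). Those above 0 were Serpinb1b, Serpinb6a, Serpinb8, Serpinb11, Serpinb12, Serpind1, Serpina1d and Serpinf1. Without the E11 array only Serpinb12 passed, and without the E12 array only Serpinb12 and Serpinb1b did. The trend of days and the step between slides can therefore be set apart only within a slide, between E11 and E12 or between E16 and E18.

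**Figure D2:**
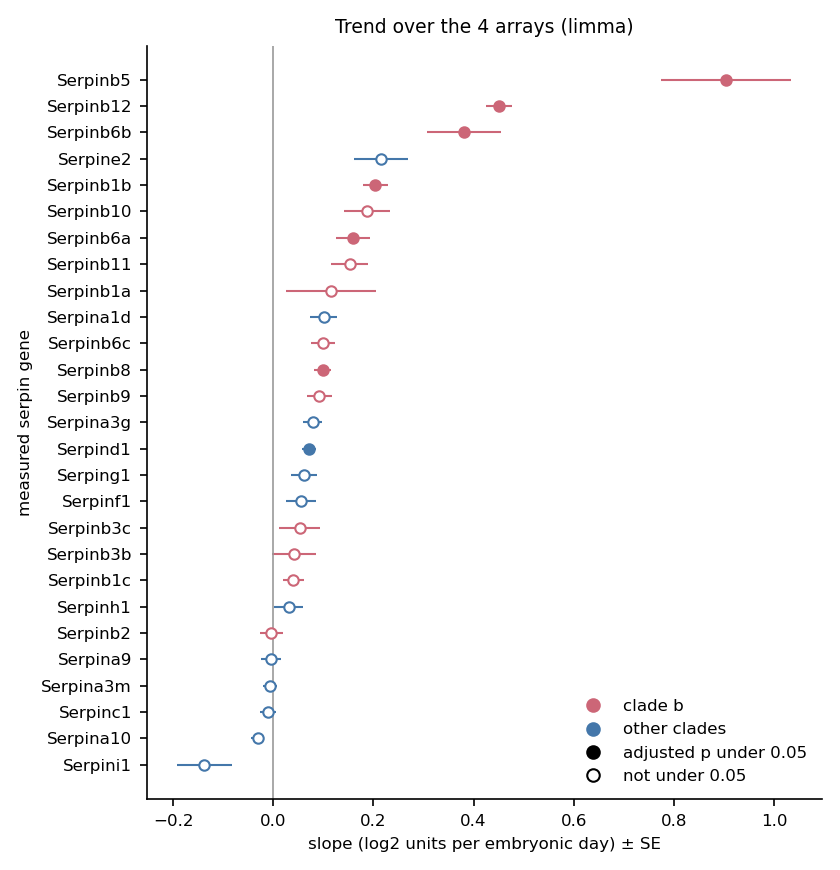
Each point is the slope of a measured serpin named in the text in log2 units per embryonic day with its standard error (SE), filled where the limma adjusted p was under 0.05. The 7 filled points all lie above 0, Serpinb5 is farthest right at 0.90, and Serpini1 is farthest left at -0.14 and is not filled.

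Serpinb5 (maspin), a clade b member with no protease inhibitor activity that is typical of epithelial cells, had the widest range of the serpins. Its ratios were -4.41 at E11 and -3.61 at E12, against 1.76 at E16 and 1.09 at E18, with an E14 SD of 0.03 (n = 4 hybridisations). It was thus 21.3-fold lower at E11 than at E14 (12.7-fold with median centring, which gave 7.13-fold above E14 at E16 in place of 3.40-fold, and 3.37-fold at E18 in place of 2.13-fold) and 45.4-fold higher at E18 than at E11. E11 and E12 were low and E16 and E18 high. The slope was 0.90 ± 0.13 log2 units per day (SE, limma adjusted p = 0.0141). Within slides the direction differed, with E12 0.81 above E11 and E18 below E16 by a difference of -0.67. Its probe (mm7, chromosome 1, 106781864 to 106781923, plus strand) was above background in both channels on all arrays.

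Epithelial markers had median ratios of the same signs as Serpinb5 at each stage. The median of the 7 was -1.59 at E11 and -0.60 at E12, against 1.09 at E16 and 0.56 at E18, and 4 of the 7 rose by the same test. Their summed level (log2) went from 13.6 at E11 and 14.7 at E12 to 16.1 at E14, 16.8 at E16 and 16.4 at E18. Markers of keratinizing epithelium had medians of -0.82, -0.72, 1.41 and -0.04, with 7 of 9 measured, 1 risen and Ivl and Sprr1b not above background. Their summed level was lowest at E11 (10.3), 11.7 at E14, highest at E16 (12.9) and 11.8 at E18. The part of the epithelial share in the serpin ratios was not tested.

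Serpinb6b, a mouse paralogue of the cytosolic inhibitor Serpinb6a, was flat up to E14 and high afterwards. Its ratios were -0.10 at E11 and -0.20 at E12, against 2.45 at E16 and 1.98 at E18 (E14 SD 0.04, n = 4). E16 was 5.47-fold and E18 3.94-fold above E14, and the slope was 0.38 ± 0.07 per day (SE, limma adjusted p = 0.0315). Within slides it was level or lower at the later day, by -0.10 between E11 and E12 and -0.47 between E16 and E18.

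Serpinb6a, an inhibitor of trypsin-like proteases and cathepsin G found in many tissues, followed with smaller steps. Its ratios were -0.30 at E11 and -0.03 at E12, against 0.80 at E16 and 0.74 at E18 (E14 SD 0.04, n = 4), and its slope was 0.16 ± 0.03 per day (SE, limma adjusted p = 0.0401). Within slides E12 was above E11 by 0.27, and E18 less E16 was -0.06. A dimmer second probe of Serpinb6a was above background in no channel and read between -0.07 and 0.07. With each array centred on its median in place of loess the slopes of Serpinb6a and Serpinb6b no longer passed (adjusted p = 0.26 and 0.053), and their E11 and E12 ratios turned positive, 0.52 and 1.03 for Serpinb6a and 0.28 and 0.36 for Serpinb6b. Under that centring the median over all genes was itself 0.40 at E11 and 0.64 at E12, with 0.57 at E16 and 0.17 at E18. The third member on the array, Serpinb6c, had a highest ratio of 0.64 at E16 and did not pass (limma adjusted p = 0.055). Probes of such near-identical paralogues can bind each other's RNA, so which of them gave a signal is uncertain.

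Serpinb12, an inhibitor of trypsin-like serine proteases, was not above background at E11, E12 or on any E14 hybridisation, and was above it at E16 and E18. Measured ratios were -0.08 at E11 and 0.02 at E12, against 2.02 at E16 and 2.94 at E18, with the largest E14 SD of the serpins, 0.23 (n = 4), since its E14 signal ran from 5.83 on the E11 array to 6.32 on the E18 array. As bounds, E16 was at least 4.06-fold and E18 at least 7.70-fold above E14, and E18 was at least 8.11-fold above E11. A bound sets the bright channel against the dimmest signal still above background or the dim probe's own, takes the lower of the results from single channels and from the array's ratio, and remains open to dye bias without swaps. The slope was 0.45 ± 0.03 per day (SE, limma adjusted p = 0.00494). On the slide of the late stages E18 was above E16 by 0.92, which was 0.09 by the scanner log ratio, and E11 and E12 were too dim to set against each other. A dimmer second probe read 0.06, -0.10, 0.33 and 0.65 in the same order, the same direction at E16 and E18 with smaller ratios.

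Serpinb11, which lies in the same group on chromosome 1, was highest at E18. It was above background at E16 and E18 alone, with ratios of -0.04 at E11 and 0.04 at E12, against 0.23 at E16 and 1.22 at E18 (E14 SD 0.11, n = 4). E18 was at least 2.33-fold above E14, and the slope of 0.15 ± 0.04 per day missed the threshold (SE, limma adjusted p = 0.0581). From E16 to E18 it gained 0.99 log2 units.

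Serpinb1a and Serpinb1b, mouse counterparts of the inhibitor of neutrophil elastase and cathepsin G, took different courses. Serpinb1a read -0.02 at E11 and -0.40 at E12, against 1.46 at E16 and 0.06 at E18 (E14 SD 0.06, n = 4). It was high on the E16 array alone, 2.64-fold above E18 on the same slide, and a straight line did not pass (slope 0.12 ± 0.09, SE, limma adjusted p = 0.445). Serpinb1b read -0.29 at E11 and -0.17 at E12, against 0.93 at E16 and 0.99 at E18 (E14 SD 0.09, n = 4), with a slope of 0.20 ± 0.02 per day (SE, limma adjusted p = 0.0103) and a difference from E16 to E18 of 0.06, which was -0.16 with median centring. E11 and E12 of Serpinb1b were not above background, so E18 was at least 2.43-fold above E11, and its second probe read -0.14, -0.02, 0.80 and 0.96. Serpinb1c was above background at E16 alone, with a ratio of 0.35. The difference between Serpinb1a and Serpinb1b was not tested. Of 6 macrophage and leukocyte markers on the array 5 were measured, Itgam not being above background. Their medians were -0.37, -0.56, 0.06 and -0.10, and none had risen or fallen. They went different ways, with a range of -0.76 to 1.84 at E11 and -0.19 to 0.33 at E16. The part of these cells in the Serpinb1a and Serpinb1b values was not tested.

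Serpinb8, an inhibitor of furin-like proteases, rose in small steps. Its ratios were -0.41 at E11 and -0.15 at E12, against 0.10 at E16 and 0.37 at E18 (E14 SD 0.07, n = 4), with a slope of 0.10 ± 0.02 per day (SE, limma adjusted p = 0.0231). E11 and E12 were not above background, and its dimmer probe was at -0.02 at E18. E18 was above E16 on the same slide by 0.27 log2 units.

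Serpinb10 (bomapin), known from blood-forming cells, read -0.80 at E11 and -0.34 at E12, against 0.75 at E16 and 0.39 at E18 (E14 SD 0.09, n = 4). It was not above background at E11, E16 was at least 2.93-fold above E11, and the slope did not pass (0.19 ± 0.05, SE, limma adjusted p = 0.0566). Its order of stages was that of Serpinb5, low at E11, then E12, highest at E16 and lower again at E18. A dimmer second probe of Serpinb10 was above background in no channel and read 0.04, 0.09, 0.08 and 0.02.

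**Figure D3:**
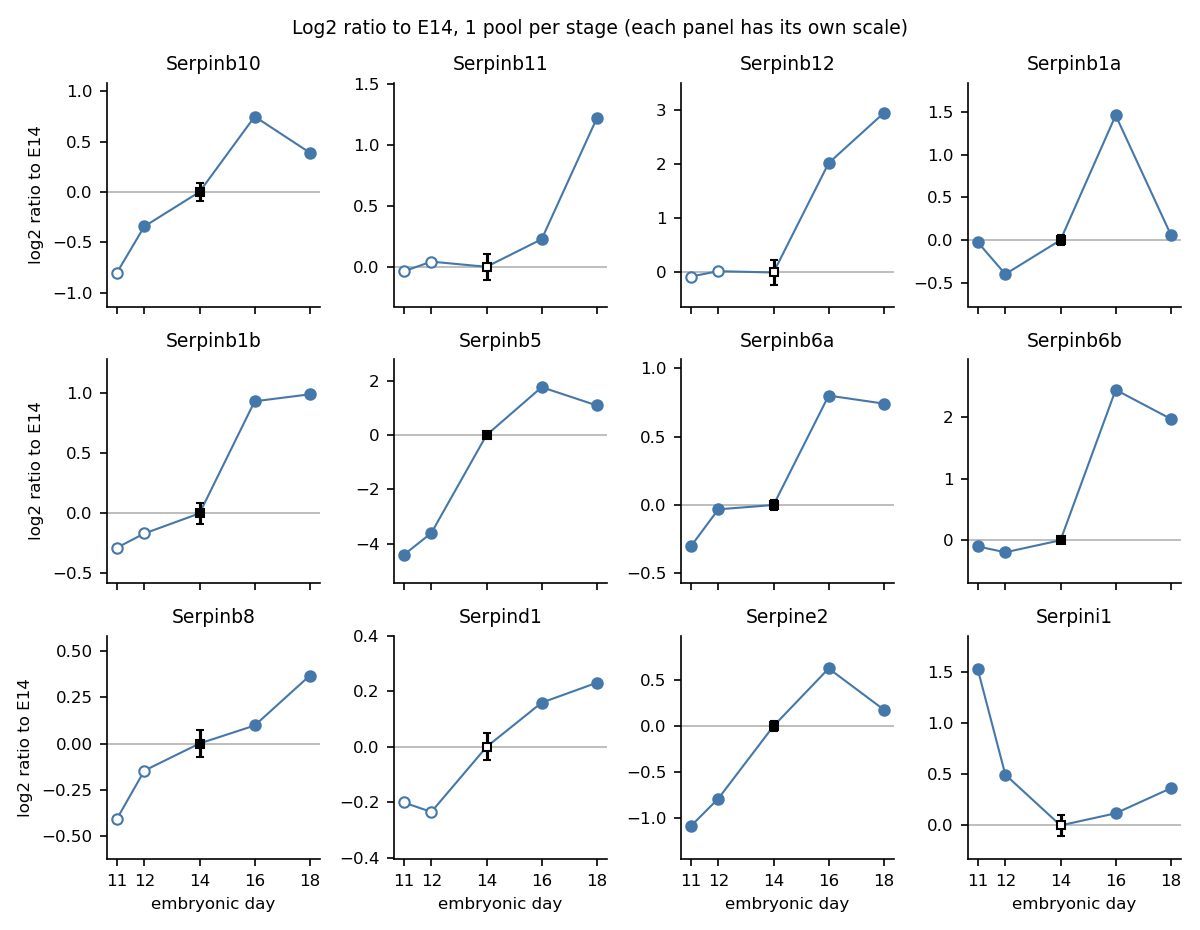
Log2 ratios to E14 by embryonic day for the 12 serpins given in full, with E14 at 0 and its SD over 4 hybridisations as the bar. Open symbols were not well above background (for E14, not on all hybridisations). Serpinb5, Serpinb6b and Serpinb12 reach 1.09 to 2.94 at E18, Serpinb1a peaks at 1.46 at E16, and Serpini1 is highest at E11 with 1.53.

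As a clade, the 15 measured b genes had median ratios of -0.10 at E11 and -0.08 at E12, against 0.71 at E16 and 0.39 at E18, while medians over all genes stayed between -0.02 and 0.00. Being above E14 was partly set by the filter, since 6 of the 15 (Serpinb1c, Serpinb2, Serpinb3b, Serpinb9, Serpinb11 and Serpinb12) were seen only in Cy5 at E16 or E18. With loess all 15 were above E14 at E16, where 50.6% of all measured genes were, and 13 at E18, where 48.4% were. Among the 9 not entered that way, 9 were above E14 at each of these stages. With median centring 11 and 10 of all 15, the 6 included, lay above the shifted median of all genes at those stages. Without slide in the fit the slope rose in 6 of the 15 (6.28% of all genes) and was above 0 in 14 (48.3% of all genes). With slide in the fit most of the 15 slopes were below 0. From E16 to E18, 11 of the 15 were lower, as were 51.4% of all genes. Serpinb9, which inhibits granzyme B, was above background only at E16 and E18, and the squamous cell antigen genes Serpinb3b and Serpinb3c had their highest ratios, 0.65 and 0.71, at E16. Serpinb2, an inhibitor of urokinase, was above background at E16 alone, at 0.29.

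The b genes lie in a pair of groups on the genome, by the mm7 positions of their probes. On chromosome 1, 12 genes span 723 kb (106781864 to 107504598) and 8 were measured, and on chromosome 13 another 12 span 1128 kb (32208400 to 33336379) and 7 were measured. Without slide in the fit 3 genes of each group rose, where 6.28% of all genes did. They were Serpinb5, Serpinb12 and Serpinb8 on chromosome 1 and Serpinb1b, Serpinb6a and Serpinb6b on chromosome 13. With slide in the fit no gene was called. Serpinb5 and Serpinb12 are the first 2 genes of the chromosome 1 group, and the next 3 in order, Serpinb13, Serpinb3a and Serpinb3d, were not measured on their brightest probes. On chromosome 13 Serpinb6b and Serpinb1b flank Serpinb9 and Serpinb9b, of which Serpinb9b was not above background.

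**Figure D4:**
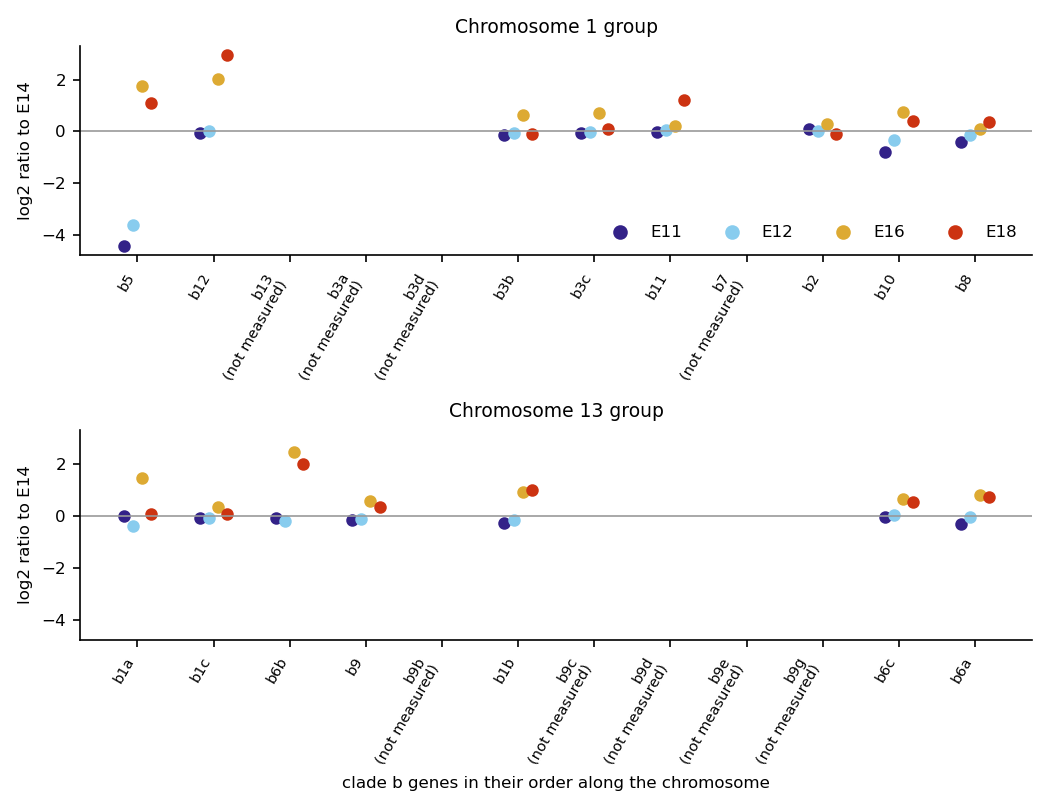
Clade b genes in their order along each chromosome group, with the log2 ratio to E14 of each stage as a point, and genes not measured left empty. Serpinb5 alone has points below -1, and at E16 every measured gene of both groups is above 0.

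Outside clade b the changes were fewer. Serpine2 (protease nexin 1), which inhibits thrombin and the plasminogen activators at the cell surface, read -1.08 at E11 and -0.79 at E12, against 0.62 at E16 and 0.18 at E18 (E14 SD 0.05, n = 4). It was 2.12-fold lower at E11 than at E14, but 1.54-fold with median centring, under which the E12 ratio was -0.06, and the slope of 0.22 ± 0.05 per day did not pass (SE, limma adjusted p = 0.0594).

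Serpini1 (neuroserpin), which inhibits tissue plasminogen activator and is known from neurons, had the lowest slope of the measured serpins. Its ratios were 1.53 at E11 and 0.50 at E12, against 0.12 at E16 and 0.36 at E18 (E14 SD 0.10, n = 4). E11 was 2.88-fold above E14 and 2.04-fold above E12 on the same slide. The line in embryonic day did not pass (slope -0.14 ± 0.05, SE, limma adjusted p = 0.165). Cy5 was above background on every array and E14 on 2 of 4 hybridisations. The 6 measured neuron markers went different ways. Their median was 0.05 at E11 (range -0.57 to 1.715) and 0.36 at E18 (range -0.48 to 1.015), with 2 risen. The 4 Schwann cell and glia markers had medians of 0.77 at E11 (range -0.78 to 1.774) and -0.12 at E18 (range -0.27 to -0.04), with none risen or fallen. The part of neuron and glia markers in the Serpini1 values was not tested.

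Serpind1 (heparin cofactor II), a thrombin inhibitor of plasma, rose by small ratios close to background. It read -0.20 at E11 and -0.23 at E12, against 0.16 at E16 and 0.23 at E18 (E14 SD 0.05, n = 4), with a slope of 0.07 ± 0.01 per day (SE, limma adjusted p = 0.0306) and a difference from E16 to E18 of 0.07. It was above background only in Cy5 at E16 and E18, and the bound for E18 over E14 was at least 1.11-fold. Antithrombin (Serpinc1), the other main thrombin inhibitor, was above background at E12 alone and its slope was close to 0.

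The single measured members of clades f, g and h are named here after their values were seen, since each stands for its clade. Serpinh1 (Hsp47), the chaperone that binds procollagen in the endoplasmic reticulum, read -0.75 at E11 and -0.74 at E12, against -0.40 at E16 and -0.64 at E18 (E14 SD 0.09, n = 4). E14 was its highest stage with loess, but the sign turned on every array with median centring (0.80, 0.81, 0.88 and 0.32), so the order against E14 depends on the scaling. Serpinf1 (pigment epithelium-derived factor), a secreted serpin that limits vessel growth, read -0.37, -0.42, -0.35 and 0.08 in the same order (E14 SD 0.05, n = 4), and with median centring 0.90, 0.93, 0.73 and 0.81. Its dimmer second probe, above background in both channels on every array, read -0.35, -0.37, -0.31 and -0.07 with loess, so the sign at E18 differed between probes. Serping1, the inhibitor of the first complement component, lay between -0.37 and 0.14. None of the 3 passed the trend test (limma adjusted p = 0.537, 0.294 and 0.198).

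The 5 measured clade a genes ranged from -0.17 to 0.75 over all arrays and none passed. The highest value was Serpina1d at E18, above background on that array alone, which is at least 1.68-fold over E14. Altogether the 16 measured serpins not given in full above ranged from -0.75 to 0.75, with slopes from -0.03 to 0.10 and limma adjusted p from 0.0519 to 0.929.

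Partners of the serpins were counted from lists of genes. Of 50 proteases, receptors and collagen-folding partners on the array, 37 were measured, 9 rose and 1 fell, with a median slope of 0.08 log2 units per day. The largest rises were those of Ctsk, the collagen-degrading cathepsin K, with a slope of 0.39 ± 0.04 (SE), Vldlr, a receptor that takes up serpin-protease complexes, with 0.31 ± 0.03, and the membrane protease Hpn with 0.26 ± 0.05 (limma adjusted p = 0.008, 0.00744 and 0.0249). The 1 that fell was coagulation factor F10, at -0.11 ± 0.02 (SE, limma adjusted p = 0.0176). Of 37 protease inhibitors that are not serpins, 22 were measured, 6 rose and none fell, with a median slope of 0.07. They were led by Spink5, an inhibitor of epidermal kallikreins, with 0.64 ± 0.11 (SE), the membrane-bound Kunitz inhibitor Spint1 with 0.25 ± 0.04 and the cystatin Cst6 with 0.20 ± 0.04 (limma adjusted p = 0.0234, 0.0218 and 0.0399). Spink5 read -0.38 at E11 and -0.38 at E12, against 3.88 at E16 and 3.19 at E18, low at both early stages and high at both late ones, as Serpinb6b was. Both lists rose at a higher share than the 6.28% of all genes, and neither was tested as a list.

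The sizes of these ratios depended on the background correction. The software's own log ratio gave 5.54 for Serpinb11 and 6.71 for Serpinb12 at E18, where the offset of 50 gave 1.22 and 2.94, while Serpinb5, a bright probe, read 1.11 by the first, 1.09 by the second and 1.75 with median centring. Sizes given for serpins near background should be read with this range in view.

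**Figure D5:**
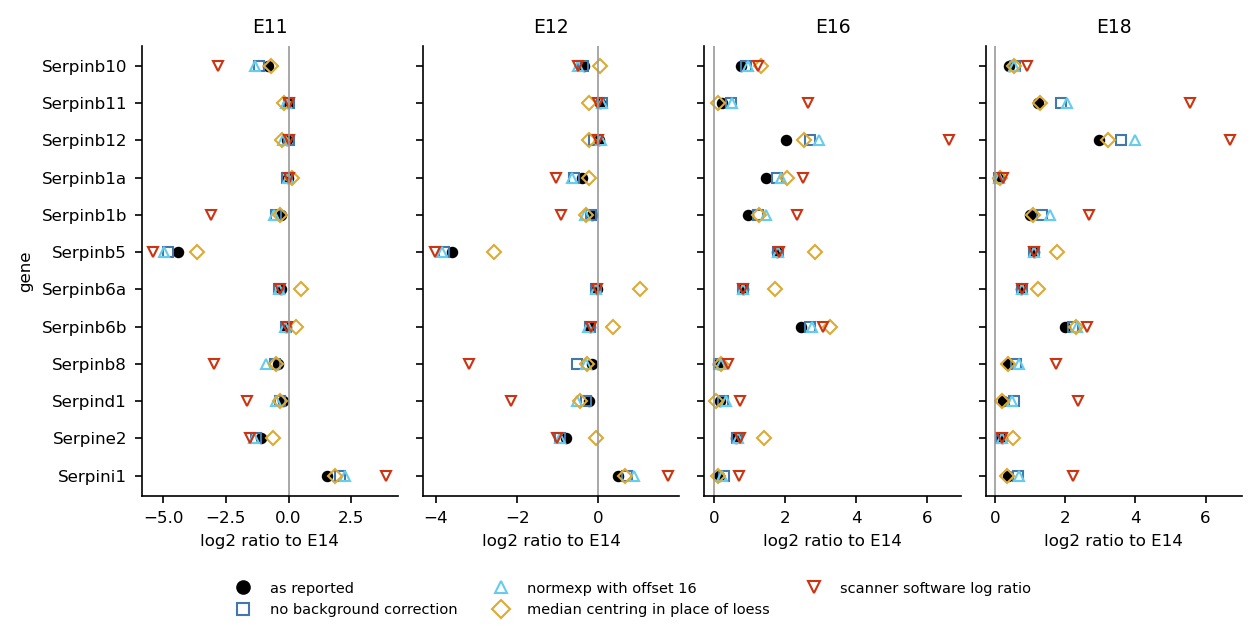
Log2 ratio to E14 of the 12 serpins at each stage under 5 ways of computing it, 1 symbol per way. Bright genes such as Serpinb5 at E16 and E18 have symbols close together except for median centring, and dim genes such as Serpinb11 and Serpinb12 spread widely.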

How the data were processed

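Pools of molar germs were hybridised on 4 Agilent 2-colour arrays. Per the file headers, spots were read with Agilent Feature Extraction 10.5.1.1, probe positions are of build mm7, and the deposited files hold linear intensity values (mean signal, median background) with flags, whose kind is other than a measurement. The deposited LogRatio column is log10 of Cy5 over Cy3 per the file headers, and 100% of the deposited value table matched it within a relative tolerance of 0.005, with column medians of 0.

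These intensity values were turned into log2 ratios by limma 3.58.1 (R 4.3.3): normexp (offset 50), then loess within each array with control spots at weight 0. Flagged spots (92 to 126 per array) were left out, none was saturated, and ratios of dim probes are compressed by the offset. Trends were fitted with lmFit and eBayes with an intensity trend, a step tested on simulated data, and adjusted over 17545 genes (7 more had a flagged spot). The number of arrays limits precision. All 54 symbols are current in RefSeq (48 matched by accession, 6 by symbol). Alternatives changed the background correction, normalization, filter, probe rule, arrays, slide block and fold.

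Members and lists were chosen with earlier results of these data known. Values on all arrays are given for each measured serpin that passed the trend test, was at least 2-fold from E14 or had a bound of at least 2-fold, the rest by ranges and counts, and up to 3 genes at either end of the slope from each related list. Other serpins with a single value given were picked after their values were seen. Values of 1 measured serpin and of 1 marker are not reported here; counts include them.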

Additional observations from a re-analysis of the deposited data

Results flagged for a closer look

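The E14 level of Serpinb6b was 7.29, 7.29 and 7.28 (log2) on the arrays of E11, E12 and E18 and 7.38 on the array of E16. The gap of that hybridisation to the nearest other was 0.949 of the whole range, above the critical value for 4 values, although the range is small beside the Serpinb6b ratio of 2.45 at E16. Chance alone marks about 1 in 20 such groups of values.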

How the results depend on the processing

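In place of 7 serpins with a trend, all rising, there were 11 with an offset of 16, 4 with only genes above background in both channels on all arrays (of 10 such serpins), 12 probes (10 genes) with every probe kept apart and 4 without an intensity trend. The share over the whole array was 8.93% as reported and 9.85%, 9.93%, 8.38% and 6.8% in these. Leaving out 1 array gave 1 to 17: 1 without E11 (Serpinb12), 2 without E12 (Serpinb12 and Serpinb1b), 15 without E16 and 17 without E18 (Serpini1 falling in both), each with 1 residual degree of freedom. Those fits called 1.24%, 2.29%, 14% and 11.3% of all genes in the same order. With slide as a block 0 passed and most slopes of the measured serpins were negative, among the called genes those of Serpinb5 (-0.11) and Serpinb6b (-0.21). The 7 called genes were among those called with no background correction, an offset of 16, the scanner log ratio and no filter, and 5 of them with median centring.
Counts 2-fold from E14 were 3, 1, 4 and 4 at E11, E12, E16 and E18, against 6.42%, 2.93%, 3.69% and 7.64% of all genes. They became 9, 8, 16 and 12 with the scanner log ratio and also with the value table, against 22.1%, 13%, 16.6% and 26% by the first. At 1.5-fold they were 5, 3, 11 and 8, against 20.1%, 9.92%, 14.2% and 21.9%. Median centring gave 2 at E11 (26% of all genes), where Serpine2 was lost, 2 at E12 (33%) and 9 at E16 (24.6%). An offset of 16 gave 7 at E16 (6.05%), and the strict filter 2 at E18 (8.83%). Between stages the scanner log ratio gave 6 (E11 to E12, 1 as reported), 22 (E12 to E16, 7), 12 (E16 to E18, 1) and 20 (E11 to E18, 9), and 1.5-fold gave 2, 12 and 7 for the first 3. The shares of all genes were 9.67%, 21.6%, 9.76% and 25.8% with the scanner log ratio, and 6.1%, 17.3% and 5.16% at 1.5-fold. For E11 to E12 an offset of 16 and median centring each gave 2 (1.81% and 2.25% of all genes). For E16 to E18 no correction gave 3 (1.91%), an offset of 16 gave 5 (2.22%) and median centring 3 (3.76%). With median centring 99.1% of all genes called at E16 were higher, against 54% with loess, and at E11, E12 and E18 93.7%, 97.8% and 87.5%, against 24.7%, 10.9% and 49.6%. The scanner log ratio gave 40%, 38.3%, 50.9% and 45.8%. Why counts moved was not tested.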
